A study of Mus musculus with 6 samples.

Results

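The nucleolar ribosome biogenesis genes examined here are 39 mouse genes, listed by name, whose products transcribe ribosomal RNA, modify and cut it, or assemble it with ribosomal proteins. Of these, 38 were measured among 19937 genes in all, each through the brightest of its probe sets that carry only its own symbol, and Npm3 was not analysed here. RNA from whole kidneys was compared between 3 NICD1 samples and 3 littermate controls, each on its own Affymetrix array. NICD1 kidneys carried the transgenes Pax8rtTA and TREICNotch1, which allow the released intracellular part of the Notch1 receptor, its active form, to be induced in tubule epithelial cells, while controls were wild type. Age, sex, inducing agent and time after induction are not given in the sources used here. Nothing states that samples of a group came from separate animals, so p-values measure the spread between these samples.

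Levels are log2 values, so a step of 1 is a 2-fold difference, and all differences are NICD1 minus control. An SE or 95% interval beside a difference comes from the fit to all 6 arrays. An SD, or a value after ±, is over the n = 3 arrays of a group. The transgene was checked through Notch1, which stood at 10.29, 10.30 and 9.99 in NICD1 arrays, against 6.65, 6.59 and 6.45 in controls (3.63 log2, SE 0.12, adjusted p = 1.52e-07). Kidney identity was plain in controls, where all 7 listed tubule and podocyte markers, Slc34a1 and Lrp2 among them, lay above the median of every control array. In NICD1 kidneys 6 of these 7 markers fell, 1 rose and Nphs1, which marks podocytes, lay below the median of each array. Array correlations over all genes were 0.985 to 0.990 within NICD1 and 0.991 to 0.994 within control, against 0.912 to 0.935 between the groups, and no array stood apart from its group.

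Ribosomes are built in the nucleolus, where RNA polymerase I copies the repeated ribosomal RNA genes into a long precursor. Small nucleolar ribonucleoproteins (snoRNPs) then guide chemical marks onto the precursor, box C/D particles adding methyl groups to ribose and box H/ACA particles turning uridine into pseudouridine. A large assembly called the small subunit processome folds and cuts the part that becomes the small subunit, and separate factors build the large subunit. Cells that grow or divide need many ribosomes, and the transcription factor Myc is a known activator of many of these genes. In the adult kidney most tubule cells seldom divide.

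Nucleolar genes were more often higher than lower in NICD1 kidneys, by moderate amounts, and the members did not move as 1 block. Of the 38 measured, 13 rose, 3 fell and 22 did not pass the test at adjusted p under 0.05. That is 34.2% higher and 7.89% lower, where 17.8% of all genes tested were higher and 14.9% lower. The median difference of the members was 0.27 log2, against 0.01 for all genes, and 31 members had a positive and 7 a negative value. Npm1 and Nop58 were the only members that rose at least 2-fold, where 4.65% of all genes did so. No member fell by that much, where 1057 of the 19937 genes did. In 21 members all 3 NICD1 arrays lay above all 3 control arrays (23.7% of all genes), in 4 they lay below (19.7% of all genes), and in 13 the groups overlapped. With the dimmest genes left out, 14 members rose (36.8%) and 4 fell, beside 27.5% and 24% of the genes kept. The excess of rises was smaller beside these brighter genes than beside all genes, while falls stayed rarer among the members.

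The level of the arrays as a whole bears on these counts. The median level of all genes was 5.38 to 5.41 in NICD1 arrays and 5.26 to 5.29 in control arrays, and centring each array on its median lowered every difference by 0.12 log2. Over all genes it changed the calls to 13.0% higher and 20.0% lower, so that the share of higher calls was 39.4% of all calls, against 54.4% with the values as deposited. After centring, 10 members rose and 4 fell, and the median difference of the members was 0.15, against -0.11 for all genes. Heatr1, Ebna1bp2 and Rrp1 lost their calls in this setting, and Dcaf13 gained one as lower. After quantile normalization, 14 members rose and 4 fell, beside 18% and 15.1% of all genes. The median difference of the members was then 0.27, against -0.004 for all genes. The smaller count of rises was thus seen with centring and not with quantile normalization. Whether the shift between arrays is part of the biology was not tested.

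**Figure D1:**
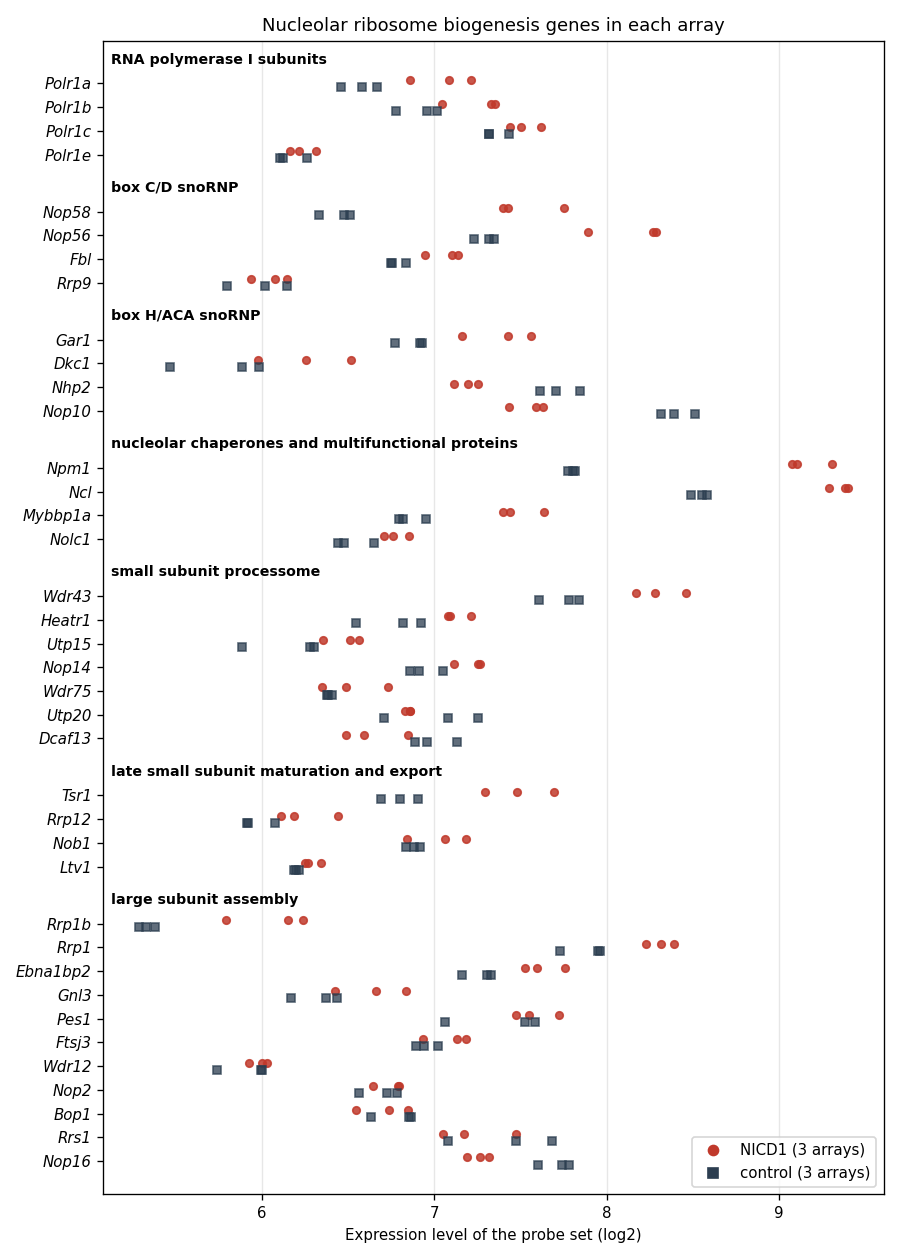
Expression level (log2, horizontal axis) of the 38 measured nucleolar genes in each of the 3 NICD1 arrays (circles) and 3 control arrays (squares), grouped by role. The groups are well apart for Npm1, Ncl, Nop58 and Nop56, with NICD1 higher, and for Nop10 and Nhp2, with NICD1 lower, and they overlap for 13 genes such as Bop1 and Nop2.

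All members were expressed at or above the middle of the range. Their means over the 6 arrays lay between the 55.2 and the 96.9 percentile of all genes, with Rrp1b the lowest and Ncl the highest. Levels of different probe sets are not comparable as amounts of RNA, and the percentiles place each member only roughly. The median SD of the members was 0.13 within NICD1 and 0.10 within control. A difference of 1 SD in that range is small beside the changes of Npm1 or Nop10, and about as large as those of Nob1 and Wdr75.

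The annotated start regions of the members that changed most in each role are shown here, because the members share a pathway and RNA polymerase II promoters are where a factor such as Myc, or RBPJ, through which active Notch reaches DNA, could act. Each stretch runs from 100 bases before to 50 bases after the start, 5′ to 3′ on the gene's strand, from RefSeq on GRCm38.p6, and capitals mark an E-box (CACGTG, the core that Myc binds).
Polr1a, chr6:71908953-71909102, plus strand: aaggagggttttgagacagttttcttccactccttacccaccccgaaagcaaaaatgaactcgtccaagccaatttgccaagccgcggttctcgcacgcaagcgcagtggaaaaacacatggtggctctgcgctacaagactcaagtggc
Nop58, chr1:59684906-59685055, plus strand: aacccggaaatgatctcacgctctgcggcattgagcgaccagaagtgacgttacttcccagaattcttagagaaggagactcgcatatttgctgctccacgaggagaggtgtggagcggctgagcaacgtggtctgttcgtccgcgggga
Nop10, chr2:112261826-112261975, plus strand: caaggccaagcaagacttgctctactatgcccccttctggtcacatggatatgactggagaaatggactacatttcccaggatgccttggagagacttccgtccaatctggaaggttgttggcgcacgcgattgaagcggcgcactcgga
Wdr43, chr17:71616115-71616264, plus strand: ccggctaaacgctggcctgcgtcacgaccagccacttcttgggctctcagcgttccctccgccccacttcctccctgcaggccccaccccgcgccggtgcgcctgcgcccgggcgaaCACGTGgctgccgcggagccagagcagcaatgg
Tsr1, chr11:74897980-74898129, plus strand: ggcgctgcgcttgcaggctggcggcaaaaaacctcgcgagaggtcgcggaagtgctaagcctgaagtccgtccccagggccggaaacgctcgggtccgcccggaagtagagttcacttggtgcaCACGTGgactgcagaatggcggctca
Rrp1b, chr17:32036062-32036211, plus strand: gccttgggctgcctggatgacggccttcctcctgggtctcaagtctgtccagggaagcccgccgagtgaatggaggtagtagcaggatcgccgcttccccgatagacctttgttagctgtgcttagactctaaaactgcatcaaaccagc

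Npm1, which changed most among the chaperones, has no entry in the promoter table used, and Rrp1b has a further annotated start that is not printed. Of the 39 genes, 33 matched an entry by symbol. Over the full 300 bases (250 before and 50 after the start), 7 of the 33 held CACGTG, which reads the same on both strands. That is 21.2%, against 9.50% of the 15613 tested genes with an entry. GTGGGAA, the core that RBPJ binds, was searched on both strands and found in 3 of the 33 (9.09%, against 7.08%). None of these matches overlapped another. The matches outside the stretches above are given with 15 bases on either side, or fewer where the table ends, and capitals mark the motif.
Pes1, E-box: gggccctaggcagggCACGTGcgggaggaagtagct
Ltv1, E-box: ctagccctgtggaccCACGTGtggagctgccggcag
Utp20, E-box: cagcggcactaactaCACGTGaggaaaa
Mybbp1a, E-box: actgtcttctgagccCACGTGtttg
Nop2, E-box: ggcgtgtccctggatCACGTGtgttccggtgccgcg
Tsr1, RBPJ core: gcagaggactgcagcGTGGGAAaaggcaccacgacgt
Polr1c, RBPJ core: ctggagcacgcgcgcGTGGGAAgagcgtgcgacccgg
Rrp9, RBPJ core: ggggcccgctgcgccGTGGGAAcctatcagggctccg

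In 6 of the 7 genes the E-box began within the 50 bases after the start: at base 3 in Pes1, 18 in Wdr43, 25 in Tsr1, 29 in Ltv1, 38 in Utp20 and 41 in Mybbp1a. In Nop2 it began 60 bases before the start (position -60). This placement was picked out after it was seen, and 1.4% of the tested genes with an entry held an E-box there. Of the 7 genes, Tsr1, Mybbp1a and Wdr43 rose, while Pes1 (0.19 log2), Ltv1 (0.09), Nop2 (0.05) and Utp20 (-0.16) did not pass. None of Nop58, Nop10, Polr1a and Rrp1b held either motif in the windows searched. The members' start regions had a median of 57.2% G or C and 18.5 CpG steps, against 57.3% and 15 for the tested genes.

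**Figure D2:**
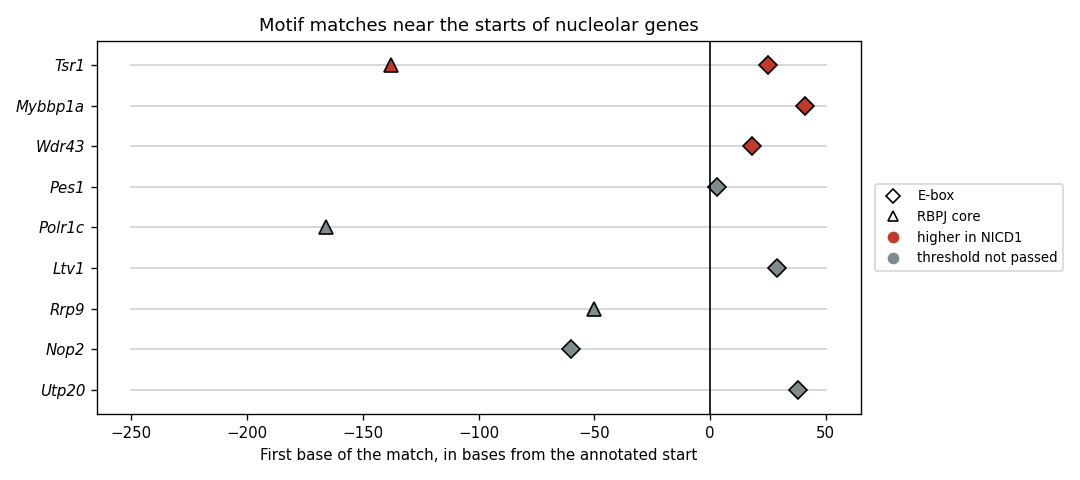
Position of each motif match (bases from the annotated start, horizontal axis, line at the start) in the 9 nucleolar genes that hold a match, ordered by their difference, with diamonds for E-boxes and triangles for the RBPJ core. Red marks genes that rose in NICD1 kidneys and grey those that did not pass, and all E-boxes except that of Nop2 lie just after the start.

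RNA polymerase I subunits were the first step of the pathway to be compared, and 1 of 4 rose. Polr1a, the largest subunit, stood at 7.22, 7.08 and 6.86 in NICD1 arrays, against 6.67, 6.46 and 6.58 in controls. The groups did not overlap, and the difference was 0.48 log2 (SE 0.12, adjusted p = 0.0123). Without control replicate 2 it was 0.43 and no longer passed (adjusted p = 0.0569). Polr1b, the other large catalytic subunit, was at 7.33, 7.04 and 7.35 in NICD1 arrays, against 6.96, 7.01 and 6.78 in controls. Its groups did not overlap either, but its difference of 0.32 (95% interval 0.05 to 0.60) missed the threshold (adjusted p = 0.0715), and it passed without NICD1 replicate 2 (0.42, adjusted p = 0.0327). Polr1c, which RNA polymerase III shares, differed by 0.17 (-0.06 to 0.39), and Polr1e, a subunit found only in RNA polymerase I, by 0.07 (-0.16 to 0.30).

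Core proteins of the box C/D snoRNP had some of the largest rises among the members. Nop58, a scaffold protein of the particle, stood at 7.75, 7.43 and 7.40 in NICD1 arrays, against 6.51, 6.48 and 6.33 in controls. Its lowest NICD1 value lay well above its highest control value, and it rose 2.12-fold (1.09 log2, SE 0.12, adjusted p = 0.000127). Nop56, the scaffold protein that pairs with Nop58, was at 8.27, 7.89 and 8.29 in NICD1 arrays, against 7.32, 7.35 and 7.23 in controls. It rose 1.80-fold (0.85 log2, SE 0.13, adjusted p = 0.000696), with NICD1 replicate 2 the lowest of its group.

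Fbl encodes fibrillarin, the methyltransferase of the same particle, and is measured by 2 probe sets. The brighter was at 7.14, 6.94 and 7.10 in NICD1 arrays, against 6.84, 6.75 and 6.75 in controls. Although these do not overlap, the difference of 0.28 (SE 0.10) missed the threshold (adjusted p = 0.0594). On the dimmer probe set NICD1 arrays had 5.85, 5.75 and 6.12, against 5.26, 5.41 and 5.33 in controls, a difference of 0.58. That difference passed when the same test was run over every single-symbol probe set (adjusted p = 0.00506). The mean of both probe sets differed by 0.43 and passed (adjusted p = 0.0104). Rrp9, a protein particular to the snoRNP that guides the first cuts of the precursor, differed by 0.06 (-0.20 to 0.33) and its groups overlapped.

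Box H/ACA proteins moved in opposite directions, although the 4 proteins form a single particle, which also serves telomerase. Nop10, the smallest of them, stood at 7.59, 7.63 and 7.43 in NICD1 arrays, against 8.51, 8.31 and 8.39 in controls. All NICD1 values lay below all control values, and Nop10 fell by 0.86 log2 (SE 0.11, 1.81-fold lower, adjusted p = 0.000225). Nhp2 was at 7.25, 7.12 and 7.19 in NICD1 arrays, against 7.61, 7.84 and 7.71 in controls. It too was lower in every NICD1 array, by 1.45-fold (-0.53 log2, SE 0.10, adjusted p = 0.00332).

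Gar1, a further protein of the same particle, went the other way, at 7.43, 7.16 and 7.56 in NICD1 arrays, against 6.77, 6.93 and 6.92 in controls. Its groups did not overlap, and it rose by 0.51 log2 (SE 0.12, adjusted p = 0.0104). The calls of Nop10, Nhp2 and Gar1 also held after centring of the arrays, at -0.98, -0.66 and 0.39. Dkc1, which encodes the pseudouridine synthase dyskerin, was at 6.52, 5.98 and 6.26 in NICD1 arrays, against 5.47, 5.99 and 5.88 in controls. Its groups overlapped, since 1 control array lay just above the lowest NICD1 array. The difference of 0.47 (95% interval 0.08 to 0.86) missed the threshold (adjusted p = 0.0651), and it passed without NICD1 replicate 2 (0.61, adjusted p = 0.0318).

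Of the 4 nucleolar chaperones and multifunctional proteins measured, 3 rose. Npm1 encodes nucleophosmin, a histone and assembly chaperone of the nucleolus, and stood at 9.07, 9.31 and 9.11 in NICD1 arrays, against 7.78, 7.82 and 7.80 in controls. It had the largest difference of all members, 2.57-fold (1.36 log2, SE 0.10, adjusted p = 1.09e-05), far beyond the spread within either group. Another 3 probe sets carry Npm1 beside a second symbol and were not used, so probes that related sequences share could contribute to its level. Ncl encodes nucleolin, an RNA-binding protein that coats young precursor RNA, and was at 9.40, 9.38 and 9.29 in NICD1 arrays, against 8.55, 8.49 and 8.58 in controls. It rose 1.76-fold (0.82 log2, SE 0.09, adjusted p = 0.000152), with an SD of 0.06 in NICD1 and 0.05 in control.

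Mybbp1a, a nucleolar protein that binds the Myb factor, was at 7.64, 7.40 and 7.44 in NICD1 arrays, against 6.80, 6.82 and 6.95 in controls. It rose by 0.64 log2 (SE 0.11, adjusted p = 0.00143), and its E-box is among those printed above. Nolc1, a chaperone that accompanies snoRNPs, did not overlap between the groups, with 6.71 to 6.85 in NICD1 and 6.44 to 6.65 in control. Its difference was 0.25 (0.02 to 0.49, adjusted p = 0.100).

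Small subunit processome genes were mixed, with 2 of 7 higher. Wdr43, of the early subcomplex that is laid down while the precursor is being transcribed, stood at 8.46, 8.28 and 8.17 in NICD1 arrays, against 7.61, 7.78 and 7.84 in controls. It rose by 0.56 log2 (SE 0.12, adjusted p = 0.00448), with no overlap. Heatr1, of the same early subcomplex, was at 7.21, 7.08 and 7.09 in NICD1 arrays, against 6.82, 6.92 and 6.55 in controls. Its rise was 0.37 (adjusted p = 0.0426), a call that was lost without NICD1 replicate 1 (0.32), NICD1 replicate 2 (0.39), NICD1 replicate 3 (0.39), control replicate 1 (0.39) or control replicate 3 (0.26).

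The remaining 5 processome members did not pass. Utp15 and Wdr75, which also belong to the early subcomplex, differed by 0.32 (0.02 to 0.63) and 0.14 (-0.13 to 0.40). Nop14, a core assembly factor, differed by 0.27 (0.04 to 0.50), and it passed after quantile normalization (0.29, adjusted p = 0.0385). Utp20, a very large scaffold protein, was at 6.86, 6.83 and 6.86 in NICD1 arrays, against 6.71, 7.26 and 7.08 in controls, so the NICD1 values fell inside the control range. Dcaf13 was lower in each NICD1 array, at 6.85, 6.59 and 6.49, against 6.89, 7.13 and 6.96 in controls. Its difference of -0.35 missed the threshold (adjusted p = 0.0588) and passed without NICD1 replicate 1 (-0.45, adjusted p = 0.0197).

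Among factors of late small subunit maturation, Tsr1 alone of 4 rose. Tsr1, which binds the nearly finished small subunit, was at 7.70, 7.29 and 7.48 in NICD1 arrays, against 6.69, 6.90 and 6.80 in controls (0.69 log2, SE 0.13, adjusted p = 0.00223). Rrp12, which takes part in export of the subunits from the nucleus, was higher in every NICD1 array, at 6.11 to 6.44, against 5.91 to 6.08 in control. Its difference of 0.28 (0.01 to 0.54) did not pass (adjusted p = 0.110). Nob1, the nuclease that makes the final cut of small subunit RNA, differed by 0.15 (-0.11 to 0.40). Ltv1, a late assembly factor, differed by 0.09 (-0.12 to 0.30), and its groups did not overlap only because both were narrow, at 6.25 to 6.34 in NICD1 and 6.19 to 6.21 in control.

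Large subunit factors also varied in direction, with 3 of 11 higher, 1 lower and 7 that did not pass. Rrp1b stood at 6.24, 6.15 and 5.79 in NICD1 arrays, against 5.29, 5.38 and 5.33 in controls. It rose by 0.73 log2 (SE 0.13, adjusted p = 0.00191), with NICD1 replicate 3 the lowest of its group. Its relative Rrp1 was at 8.39, 8.32 and 8.23 in NICD1 arrays, against 7.73, 7.96 and 7.95 in controls, and rose by 0.43 (SE 0.11, adjusted p = 0.0124). After centring, Rrp1 differed by 0.31 and did not pass (adjusted p = 0.0648).

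Ebna1bp2, whose budding yeast counterpart acts early in large subunit assembly, was at 7.76, 7.53 and 7.60 in NICD1 arrays, against 7.16, 7.31 and 7.33 in controls. It rose by 0.36 (adjusted p = 0.0277), a call that was lost after centring (0.24) and without NICD1 replicate 1 (0.30), control replicate 1 (0.31), control replicate 2 (0.38) or control replicate 3 (0.39). Nop16, a large subunit factor in budding yeast, was the member of this class that fell. It stood at 7.27, 7.19 and 7.32 in NICD1 arrays, against 7.60, 7.78 and 7.74 in controls, a difference of -0.45 (SE 0.10, adjusted p = 0.00700) with no overlap.

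The Pes1, Bop1 and Wdr12 proteins form a single complex that is needed for large subunit processing, and none of the genes passed. Pes1 was at 7.72, 7.55 and 7.47 in NICD1 arrays, against 7.06, 7.53 and 7.58 in controls, a difference of 0.19 (-0.15 to 0.53) in which control replicate 1 stood lowest. Bop1 differed by -0.07 (-0.34 to 0.20) and Wdr12 by 0.07 (-0.17 to 0.32), so the intervals leave out changes of the size seen for Ncl or Nop56. Wdr12's other probe set differed by 0.05. Nop2, a cytosine methyltransferase of large subunit RNA, differed by 0.05 (-0.18 to 0.29), and Ftsj3, a methyltransferase of the precursor, by 0.13 (-0.11 to 0.37). Gnl3 encodes nucleostemin, a nucleolar GTPase of growing cells, and differed by 0.32 (0.02 to 0.61), which passed without NICD1 replicate 3 (0.42, adjusted p = 0.0325). Rrs1, an assembly factor in budding yeast, had the widest spread among controls, at 7.08, 7.47 and 7.69, against 7.17, 7.48 and 7.05 in NICD1 arrays, and differed by -0.18 (-0.57 to 0.20).

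**Figure D3:**
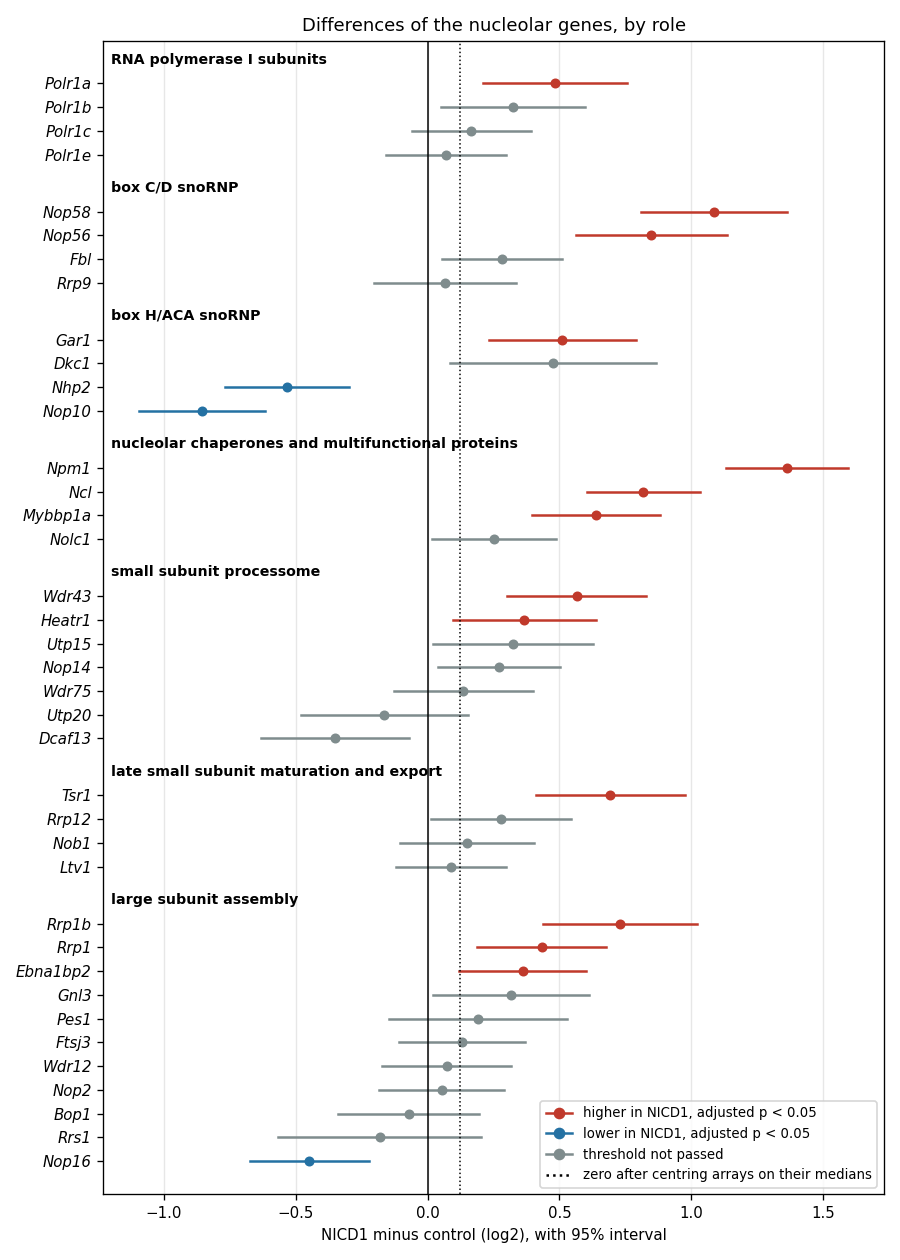
Difference of each measured nucleolar gene (NICD1 minus control, log2, point) with its 95% interval (line), grouped by role, in red where higher, blue where lower and grey where adjusted p was not under 0.05. Npm1 at 1.36 and Nop10 at -0.86 are the extremes, and the dotted line marks where 0 would lie after centring of the arrays.

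Array by array, the risen members were highest in the same NICD1 array more often than in the others. Of the 13, 10 had their highest NICD1 value in replicate 1, 2 in replicate 3 and Npm1 in replicate 2. The median deviation of the 13 from the control mean was 0.78 in NICD1 replicate 1, 0.54 in replicate 2 and 0.58 in replicate 3. The 3 fallen members did not follow that order, with median deviations of -0.47, -0.60 and -0.53. Without NICD1 replicate 1, 11 members rose and 4 fell, and the median difference of the members was 0.23. In that fit 15.7% of all genes were higher and 14.1% lower, with a median of 0.03.

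**Figure D4:**
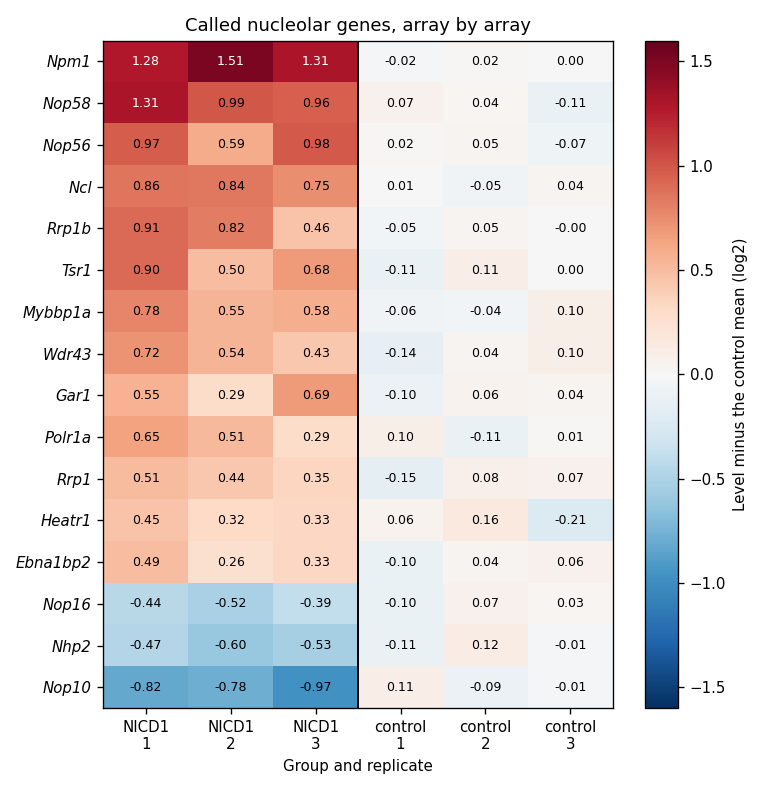
Level of the 16 called nucleolar genes in each array (columns) minus that gene's control mean (log2, colour and printed value). Values run from -0.97 for Nop10 to 1.51 for Npm1, every NICD1 array of a gene has the same sign, and NICD1 replicate 1 is the highest for 10 of the 13 risen genes.

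Genes of other cell types and states also differed between the groups. In a whole-kidney sample, fewer cells of a type and less RNA per cell cannot be told apart. All 11 measured markers of proliferating cells rose, with a median difference of 2.17 log2. Mki67 was at 7.83, 7.68 and 8.22 in NICD1 arrays, against 5.01, 4.34 and 4.65 in controls, and Top2a rose by 3.41 log2. Summed on the unlogged scale, the 11 ran from 1724 to 2348 in NICD1 arrays and from 466 to 586 in controls, and 7 or 8 of them lay below the array median in controls, against 0 in NICD1. Of 9 leukocyte markers, 7 rose, Ptprc by 1.07 log2, and their sums were 2695, 1415 and 1444 in NICD1 arrays, against 351 to 389.7 in controls. NICD1 replicate 1, where most risen members were highest, also had the highest leukocyte sum, whereas the highest proliferation sum was in replicate 3.

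Of 5 fibroblast markers, 4 rose, Col1a1 by 2.96 log2 and Col1a2 by 2.20, with sums of 2898, 2719 and 1900 in NICD1 arrays, against 547 to 682 in controls, so the fibroblast sum too was highest in NICD1 replicate 1. The array scale has no true 0, and the B cell marker Cd79a, at 2.63 ± 0.25 in NICD1 and 2.81 ± 0.29 in control, was the dimmest of these markers. Myc was at 7.74, 7.60 and 7.44 in NICD1 arrays, against 5.28, 5.32 and 5.59 in controls (2.20 log2, adjusted p = 2.75e-06). The part of these cell types, or of Myc, in the members' differences was not tested.

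A wider list of 125 ribosome biogenesis genes outside the 39, of which 120 were measured, was also more often higher than lower. Of these, 36 rose, 8 fell and 76 did not pass, which is 30.0% higher and 6.67% lower, beside 17.8% and 14.9% of all genes, and the median difference was 0.13 log2. Whether the 38 and the 120 differ was not tested. Large subunit genes gave 16 higher and 1 lower of 47 (34.0% and 2.13%), and RNA polymerase I genes 5 and 0 of 12. Small subunit genes gave 8 higher and 5 lower of 43 (18.6% and 11.6%), about the shares of all genes. Genes of snoRNP assembly gave 3 and 0 of 8, and those of the RNA exosome, which trims ribosomal RNA, 4 and 2 of 10. None of the 120 changed 2-fold. After centring, 17 of them were higher (14.2%) and 10 lower (8.33%), beside 13.0% and 20.0% of all genes. The share of rises was then near that of all genes, while among the 38 members 26.3% were higher. After quantile normalization, 36 of the 120 were higher (30.0%) and 8 lower (6.67%), beside 18% and 15.1% of all genes. With the dimmest genes left out, 37 of the 120 were higher (30.8%) and 8 lower (6.67%), beside 27.5% and 24% of the genes kept. The share of rises was then near that of the genes kept, while the share of falls lay well below theirs. The result for the wider list thus depended on how the arrays were scaled and on which genes it was set beside.

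Nsa2, a large subunit maturation factor, had the largest rise of the wider list, at 10.97, 11.11 and 10.74 in NICD1 arrays, against 9.92, 9.99 and 9.99 in controls (0.98 log2, adjusted p = 0.000173). Its other 3 probe sets differed by 0.71, 0.06 and -0.02, so they do not all show the rise. Tex10 rose by 0.92 log2, the large subunit factor Nop53 by 0.89, the RNA polymerase I initiation factor subunit Taf1d by 0.84 and the processome gene Utp14a by 0.82. Taf1d has 6 probe sets, all with positive differences, from 0.19 to 1.02. Mrto4, named after its values were seen, was called higher on its brighter probe set (0.77) but differed by -0.38 on the other.

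The largest fall of the wider list was that of Pno1, a partner of Nob1 on the young small subunit. Pno1 was at 6.48, 6.19 and 6.24 in NICD1 arrays, against 7.10, 7.34 and 7.28 in controls (-0.93 log2, SE 0.12, adjusted p = 0.000263). Las1l, which encodes a nuclease that works in a complex with Tex10, fell by 0.45 while Tex10 rose. The small subunit factor Bysl fell by 0.42, the small subunit methyltransferase Bud23 by 0.40 and the exosome subunit Exosc4 by 0.40. As among the 38, factors of a shared complex were found on both sides.

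**Figure D5:**
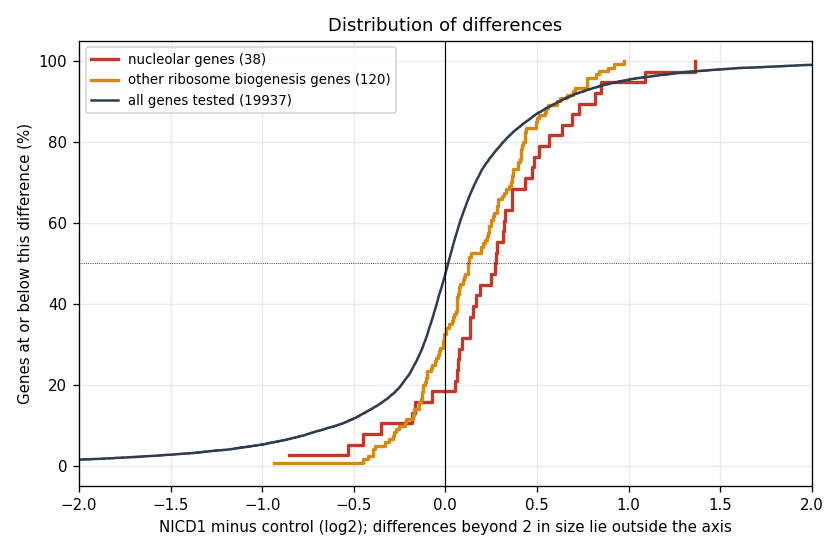
Cumulative share of genes (vertical axis, %) at or below each difference (NICD1 minus control, log2) for the 38 nucleolar genes, the 120 other ribosome biogenesis genes and all 19937 genes tested. The medians are 0.27, 0.13 and 0.01, and the curve of all genes reaches further to both sides than either list.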

How the data were processed

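Whole-kidney RNA of 6 samples was hybridised to 6 arrays, 3 per group. The deposited table holds log2 expression per probe set, which the authors normalized with the RMA16 algorithm in GeneSpring per the labels' protocols; the log2 scale was read from the values. RMA evens out array distributions and compresses dim genes. No source used here gives detection calls, scan batches or the GeneSpring version. The number of arrays limits the precision.

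Symbols came from the platform annotation of the values table. Of 34760 probe sets, 21640 had a single symbol and 1321 several, and the single-symbol probe set with the highest mean over 6 arrays stood for each of 19937 genes (954 had several). All 38 measured members matched a GRCm38.p6 gene of the same symbol. The group difference was tested for every gene by limma 3.58.1 under R 4.3.3 (two-sided moderated test, Benjamini-Hochberg over all genes, threshold 0.05), and the procedure was tested on simulated data. All members were named, and of the wider list the 5 largest called changes each way. The members and lists were chosen with earlier results of these data known. Alternatives were the mean of probe sets, quantile normalization, median centring, leaving out the dimmest 40%, a trended robust variance, blocking on the replicate number, removal of single arrays, and a threshold of 0.01.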

Additional observations from a re-analysis of the deposited data

How the results depend on the processing

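Of the 16 called members, 11 kept their call under all 13 alternatives: Nop56, Nop58, Ncl, Npm1, Mybbp1a, Wdr43, Tsr1 and Rrp1b as higher and Nop10, Nhp2 and Nop16 as lower. The calls of Polr1a, Gar1, Rrp1, Heatr1 and Ebna1bp2 were lost under at least 1, and 6 members without a call gained one under at least 1. No called value changed sign. Centring arrays on their medians gave a median difference of the members of 0.15 and 17 other pathway genes called higher (14.2%, beside 13.0% of all genes). At an adjusted p under 0.01, 8 members were higher (21.1%), and 14 other pathway genes were higher (11.7%) and 2 lower (1.67%), beside 12% of all genes higher and 11% lower. Leaving out each array gave 23 to 33 other pathway genes higher (19.2% to 27.5%) and 3 to 6 lower. In the same fits 14.1% to 17.5% of all genes were higher and 12.3% to 14.1% lower, against 17.8% and 14.9% with every array. The falls were 4 without NICD1 replicate 2, 5 without control replicate 1, 3 without control replicate 2 and 5 without control replicate 3, and 23 rose without control replicate 1. These fits have fewer arrays. The labels number the arrays of both groups and do not say whether same-numbered arrays are paired. Deviations of same-numbered arrays correlated at -0.07 to -0.01 over genes. Of the NICD1 arrays, 0 of 3 correlated best with the control of its own number. With 3 arrays per group these values cannot decide whether the arrays are paired. With the replicate block, 11 members were higher and 3 lower, beside 16.1% and 13.9% of all genes, and Heatr1 and Ebna1bp2 did not pass.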
